A study of Mus musculus with 8 samples.

Results

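Expression of 32 genes of the hypoxia pathway was examined in whole melanoma tumors. The genes were taken by name as hypoxia-inducible factor (HIF) subunits, oxygen sensors and HIF targets that do not code for glycolytic enzymes. All 32 had a probe set with 1 gene symbol, out of 24675 such genes on the array. B16-F10, a melanoma line from the C57BL/6J mouse strain, was injected under the skin of female C57BL/6J mice aged 9 weeks. The mice had eaten a high fat high cholesterol diet made with cocoa butter (HFHCD) or a standard chow diet (CD) for 2 weeks. At day 9 after injection 4 tumors per diet were taken, and the sources used here do not say that each came from a different mouse, so p-values measure only the spread between these tumors. The sample titles write HFHCD as HFD. RNA was measured on MouseGene2.0ST arrays of Affymetrix, 1 per tumor, and all levels given here are log2 expression values made by robust multi-array average (RMA), so a difference of 1 is a doubling.

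HIF is a pair of proteins, an alpha subunit and ARNT. When oxygen is present, prolyl hydroxylases mark the alpha subunit, the VHL protein binds it and the proteasome destroys it, while the hydroxylase FIH blocks its binding to co-activators. When oxygen falls, the alpha subunit escapes and the pair binds short DNA motifs near its targets, which supply glycolysis, pH control, mitochondrial turnover and vessel growth, and also the sensors themselves. Because this control acts on the alpha proteins, the mRNA of a subunit is not a reading of its activity, and HIF protein and oxygen were not measured in these samples.

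The motif that HIF binds has the letters ACGTG or GCGTG. Each was searched on both strands in the 250 bases before the start site of every gene with an entry in the RefSeq promoter table for build GRCm38.p6. Of the 32 genes 26 had an entry, and 22 of these (84.6%) held at least 1 match in at least 1 promoter, against 41.5% of 27025 genes in the table. Counted by promoter, 79.4% of 34 promoters of these genes held a match, against 38.6% of 32851. No match was found in this window for Car12, Hif1an, Nfil3 and Vhl. Stc1, Ndrg1, Bhlhe40, Bnip3l, Zfp395 and Epas1 were not analysed for promoter letters. A match is a description of letters and not a binding site, and the base composition of the promoters was not adjusted for. The promoters below, 5′ to 3′ on the strand of the gene, belong to Car9 and Ppp1r3c, which were called between diets, and to Ddit4 with Ankrd37 and Bnip3 with Fam162a, which rose and fell together from tumor to tumor. Capitals mark the matches, written CACGT or CACGC where the motif lies on the other strand, and in CACGTG and CACGCGTG matches on both strands overlap.
Car9 (chr4:43506776-43507025, plus strand): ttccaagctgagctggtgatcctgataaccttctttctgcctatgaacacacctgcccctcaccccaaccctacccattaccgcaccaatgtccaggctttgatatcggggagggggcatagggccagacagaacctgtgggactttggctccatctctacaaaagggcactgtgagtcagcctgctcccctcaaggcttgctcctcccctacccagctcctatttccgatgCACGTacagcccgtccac
Ddit4 (chr10:59951771-59952020, minus strand): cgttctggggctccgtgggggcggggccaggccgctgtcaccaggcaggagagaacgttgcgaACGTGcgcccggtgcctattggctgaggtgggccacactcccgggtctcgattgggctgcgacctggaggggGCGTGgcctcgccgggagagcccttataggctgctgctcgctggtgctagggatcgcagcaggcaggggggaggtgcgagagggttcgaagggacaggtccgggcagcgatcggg
Ankrd37 (chr8:45999851-46000100, minus strand): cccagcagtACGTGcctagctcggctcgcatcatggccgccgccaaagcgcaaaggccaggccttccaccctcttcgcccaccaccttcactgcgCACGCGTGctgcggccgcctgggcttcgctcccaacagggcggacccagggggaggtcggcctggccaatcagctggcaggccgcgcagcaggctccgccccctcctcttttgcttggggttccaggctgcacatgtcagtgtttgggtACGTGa
Bnip3 (chr7:138909507-138909756, minus strand): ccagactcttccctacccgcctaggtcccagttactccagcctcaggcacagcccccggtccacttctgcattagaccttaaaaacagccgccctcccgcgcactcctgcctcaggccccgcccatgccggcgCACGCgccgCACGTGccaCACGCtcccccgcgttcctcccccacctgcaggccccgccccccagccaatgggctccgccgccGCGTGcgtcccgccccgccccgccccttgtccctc
Fam162a (chr16:36071562-36071811, minus strand): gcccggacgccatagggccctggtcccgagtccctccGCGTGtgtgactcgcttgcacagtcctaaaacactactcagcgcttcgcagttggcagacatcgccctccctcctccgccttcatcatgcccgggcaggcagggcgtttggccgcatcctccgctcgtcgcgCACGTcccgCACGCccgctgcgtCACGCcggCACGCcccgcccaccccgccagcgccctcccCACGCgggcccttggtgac
Ppp1r3c (chr19:36736605-36736854, minus strand): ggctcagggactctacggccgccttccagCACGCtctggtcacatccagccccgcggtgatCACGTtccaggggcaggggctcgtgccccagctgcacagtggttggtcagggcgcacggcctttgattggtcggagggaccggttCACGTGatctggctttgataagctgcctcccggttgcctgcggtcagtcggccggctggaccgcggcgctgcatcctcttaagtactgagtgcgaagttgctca
Car9 held 1 match, which began 18 bases before the start site, Ddit4 held 2 and Ankrd37 held 4. Matches were more numerous in Bnip3 with 5 and Fam162a with 6, and Ppp1r3c, the only gene of the set called lower on HFHCD, held 4.

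Samples were compared first. Array medians lay between 5.04 and 5.21, and correlations between arrays were 0.991 to 0.994 within HFHCD and 0.974 to 0.991 within CD. A pair of CD tumors stood apart, CD 1 on a first principal component with 29.9% of the variance and CD 3 on a second with 28.2%. The tissue label held in all tumors, as the melanosome gene Pmel lay between 12.64 and 12.73 on HFHCD and between 12.61 and 12.75 on CD. Markers of other cells differed between diets. A marker was counted as lower or higher on HFHCD if its unadjusted p was under 0.05 by limma. Of all genes, 3.91% were lower and 4.76% higher by this rule. The mean of 18 fibroblast markers was 5.76 to 5.90 on HFHCD and 6.32 to 7.52 on CD, with 14 of 18 lower on HFHCD. The mean of 21 skeletal muscle markers was 5.25 to 5.60 on HFHCD and 5.47 to 7.01 on CD, with 14 of 21 lower. The mean of 22 monocyte and macrophage markers was 5.82 to 6.34 on HFHCD and 6.26 to 7.66 on CD, with 12 of 22 lower. Melanocyte markers averaged 10.88 to 10.96 on HFHCD and 10.71 to 10.89 on CD, with 4 of 20 higher. The HFHCD mean was above the CD mean for 17 of these 20. Of 20 endothelial markers 2 were lower (means 6.00 to 6.22 on HFHCD and 6.06 to 6.37 on CD), as were 2 of 15 T and NK cell markers (means 4.27 to 4.39 on HFHCD and 4.36 to 5.74 on CD). The HFHCD mean was below the CD mean, called or not, for 16 of these 20 and 12 of these 15 markers. Of 13 neutrophil markers 0 were called by limma at an unadjusted p under 0.05 (means 4.03 to 4.07 on HFHCD and 3.94 to 4.28 on CD). The part of these cells in the results below was not tested, and in a whole tumor fewer cells of a type and less RNA per cell cannot be told apart.

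The comparison of HFHCD with CD asked which of these genes differed between the diets. Stc1, Ndrg1, Car9 and Bhlhe40 were higher on HFHCD and Ppp1r3c was lower, at an unadjusted p under 0.05 by limma, the threshold of the methods. The remaining 27 genes were not called. The 5 called genes are 15.6% of the 32, where 8.68% of all genes were called, 4.76% as higher and 3.91% as lower. After Benjamini-Hochberg adjustment over all genes 0 of the 32 passed 0.05 by limma, as did 0 of the 24675, of which 2141 had an unadjusted p under 0.05, and the methods' t-test also gave 0 after adjustment. Fold changes on the log2 scale were above 0 for 25 of the 32 genes (78.1%) and 50.7% of all genes, and their median was 0.17 over the 32 and 0.0024 over all genes.

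**Figure D1:**
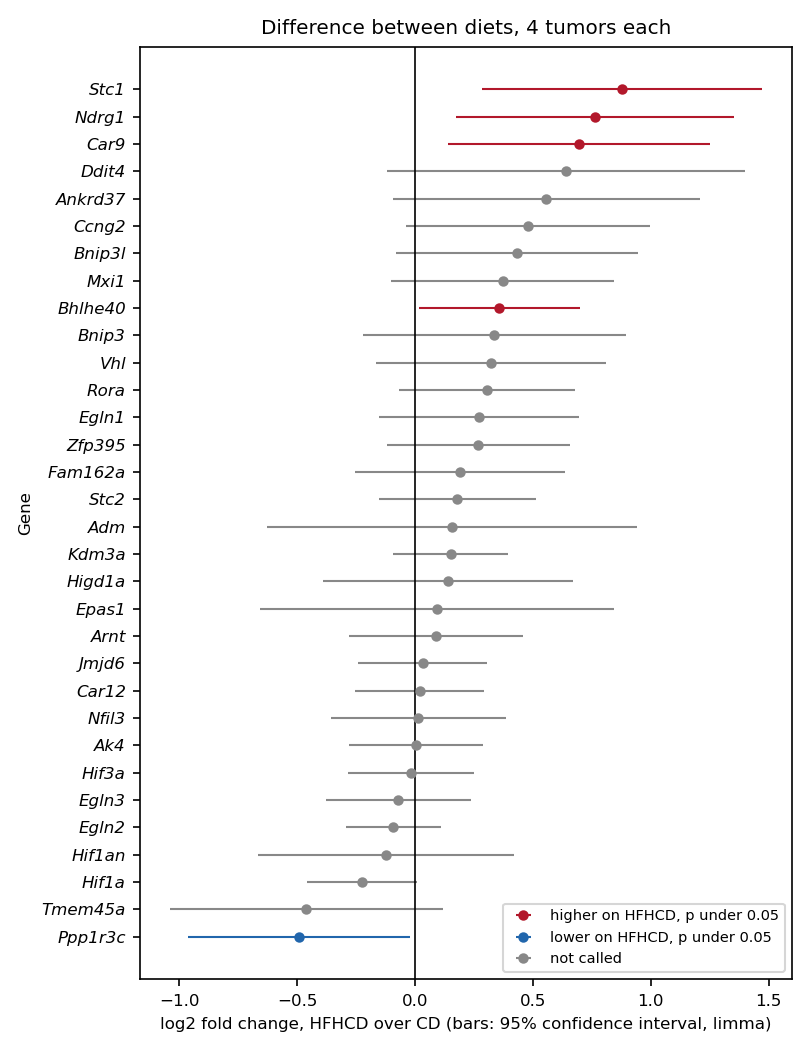
Log2 fold change of each of the 32 genes (HFHCD over CD, horizontal axis) with its 95% confidence interval from limma, 4 tumors per diet. Red and blue mark the 4 genes called higher and the 1 called lower on HFHCD at an unadjusted p under 0.05, and the intervals of the other 27 genes, in grey, cross 0.

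Counts of called genes depended on single tumors. Without CD 4, 12 of the 32 genes (37.5%) were called, 10 higher and 2 lower, where 8.92% of all genes were called in the same setting. Without HFHCD 1 or HFHCD 3 the count was 2 (6.25%), where 6.02% and 7.76% of all genes were called, and without HFHCD 4 or CD 3 it was 3 (9.38%), where 6.73% and 7.87% of all genes were called. With both CD 1 and CD 3 left out 3 genes (9.38%) were called, below the 14.5% of all genes. These were Vhl, Bnip3l and Ccng2, all higher, and none of the 5 genes called over all tumors. The methods' t-test called 1 gene (3.12%), Stc1, and 7.61% of all genes.

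**Figure D2:**
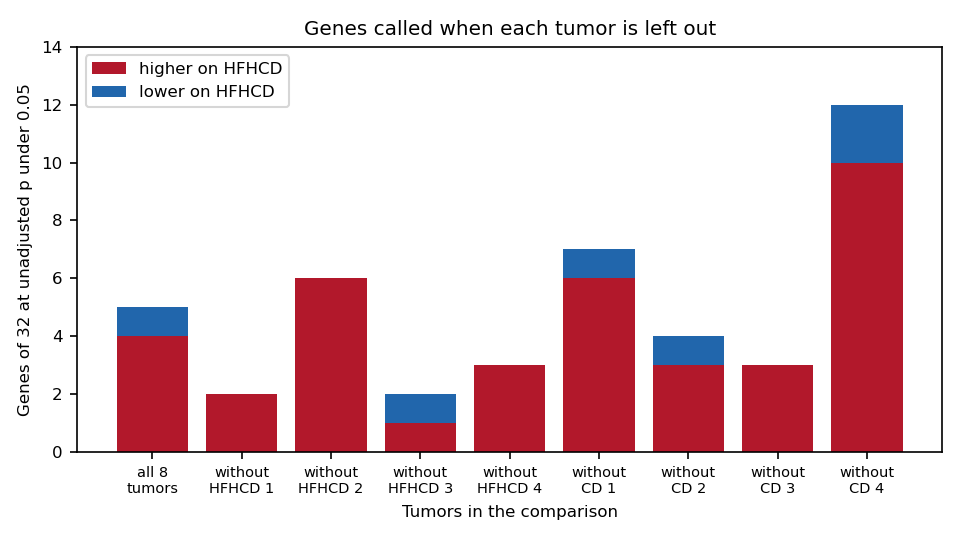
Number of the 32 genes at an unadjusted p under 0.05 by limma (vertical axis) over all 8 tumors and with each tumor left out in turn, split into genes higher (red) and lower (blue) on HFHCD. The count was 5 over all tumors, 2 without HFHCD 1 or HFHCD 3, and 12 without CD 4.

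Stc1 codes for stanniocalcin 1, a secreted glycoprotein that acts on calcium and phosphate handling. Its level was 8.66, 8.33, 8.94 and 8.46 in HFHCD tumors 1 to 4, against 7.66, 7.39, 7.27 and 8.55 in CD tumors 1 to 4. HFHCD tumors were all above CD 1, CD 2 and CD 3, but CD 4 lay among them. The means were 8.60 ± 0.26 on HFHCD and 7.72 ± 0.58 on CD (SD, n = 4 each), a log2 fold change of 0.88 ± 0.26 (SE) or 1.84-fold (limma, p = 0.00847, adjusted p = 0.46, exact permutation p = 0.0857). The smallest p that the exact test of 4 tumors against 4 can give is 0.0286. Leaving out any single tumor kept the call, with log2 fold changes of 0.73 to 1.16, and it was lost with CD 1 and CD 3 both left out, at 0.63.

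Of the other secreted factors, Adm codes for adrenomedullin, a peptide that widens vessels, and Stc2 for stanniocalcin 2. Adm varied widely within each diet, from 5.43 to 6.67 on HFHCD and from 5.13 to 6.78 on CD, and its log2 fold change was 0.16 ± 0.35 (SE). Stc2 lay between 4.32 and 4.82 on HFHCD and between 4.11 and 4.62 on CD, and was above 4.50, the 40th percentile of all values on the arrays, in 2 of 8 tumors. Neither was called.

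Ndrg1, Ddit4, Ankrd37 and Tmem45a were grouped under stress and growth control. NDRG1 is a cytoplasmic protein linked to growth arrest and differentiation. Ndrg1 stood at 9.22, 8.57, 9.49 and 8.77 in HFHCD tumors 1 to 4, against 8.33, 7.79, 8.0 and 8.87 in CD tumors 1 to 4. HFHCD 1 and HFHCD 3 were above all CD tumors, while CD 4 was above HFHCD 2 and HFHCD 4. HFHCD exceeded CD by 0.76 ± 0.26 (SE) on the log2 scale, or 1.70-fold (limma, p = 0.0164, adjusted p = 0.49, exact permutation p = 0.0857). The call was lost without HFHCD 3, at 0.61, and with CD 1 and CD 3 both left out, at 0.68.

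Ddit4 codes for REDD1, an inhibitor of the growth kinase mTORC1. It measured 8.27, 7.46, 8.50 and 7.93 in HFHCD tumors 1 to 4, against 7.66, 7.01, 6.70 and 8.23 in CD tumors 1 to 4. The order matched that of Ndrg1 in the top 4 tumors, with HFHCD 3 and HFHCD 1 first, CD 4 next and HFHCD 4 after it, and the diets overlapped. Its log2 fold change of 0.64 ± 0.34 (SE) was not called (limma, p = 0.0887, exact permutation p = 0.171), but was without CD 4 (0.92) and without HFHCD 2 (0.84), while without CD 3 it was 0.41.

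Ankrd37, a HIF target that codes for an ankyrin repeat protein, ranked all 8 tumors as Ddit4 did. It ranged from 6.52 to 7.50 on HFHCD and from 5.98 to 7.09 on CD. Its log2 fold change of 0.56 ± 0.29 (SE) was not called (limma, p = 0.0855, exact permutation p = 0.143), but was without CD 4 (0.75) and without HFHCD 2 (0.74), while without CD 3 it was 0.38. Tmem45a, a transmembrane protein gene, had the opposite sign, at 3.87 to 4.36 on HFHCD and 3.92 to 5.29 on CD, and exceeded 4.50 in only 2 tumors, CD 1 and CD 3. Its log2 fold change was -0.46 ± 0.26 (SE) and was called only without CD 4, at -0.67, while without CD 3 it was -0.21.

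Car9 and Car12 code for carbonic anhydrases IX and XII, membrane enzymes that hydrate carbon dioxide at the cell surface and help tumor cells control pH. Car9 read 10.04, 9.46, 10.07 and 9.65 in HFHCD tumors 1 to 4, against 9.25, 8.50, 8.98 and 9.71 in CD tumors 1 to 4. As for Stc1, every HFHCD tumor was above CD 1, CD 2 and CD 3 and only CD 4 overlapped. On the log2 scale HFHCD was higher by 0.70 ± 0.25 (SE), or 1.62-fold (limma, p = 0.0197, adjusted p = 0.50, exact permutation p = 0.0857). It was not called without HFHCD 1 (0.62) or HFHCD 3 (0.61), nor with CD 1 and CD 3 both left out (0.70). Car12 spanned 4.68 to 4.93 on HFHCD and 4.60 to 5.05 on CD, and its log2 fold change of 0.02 had a 95% interval of -0.26 to 0.29.

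**Figure D3:**
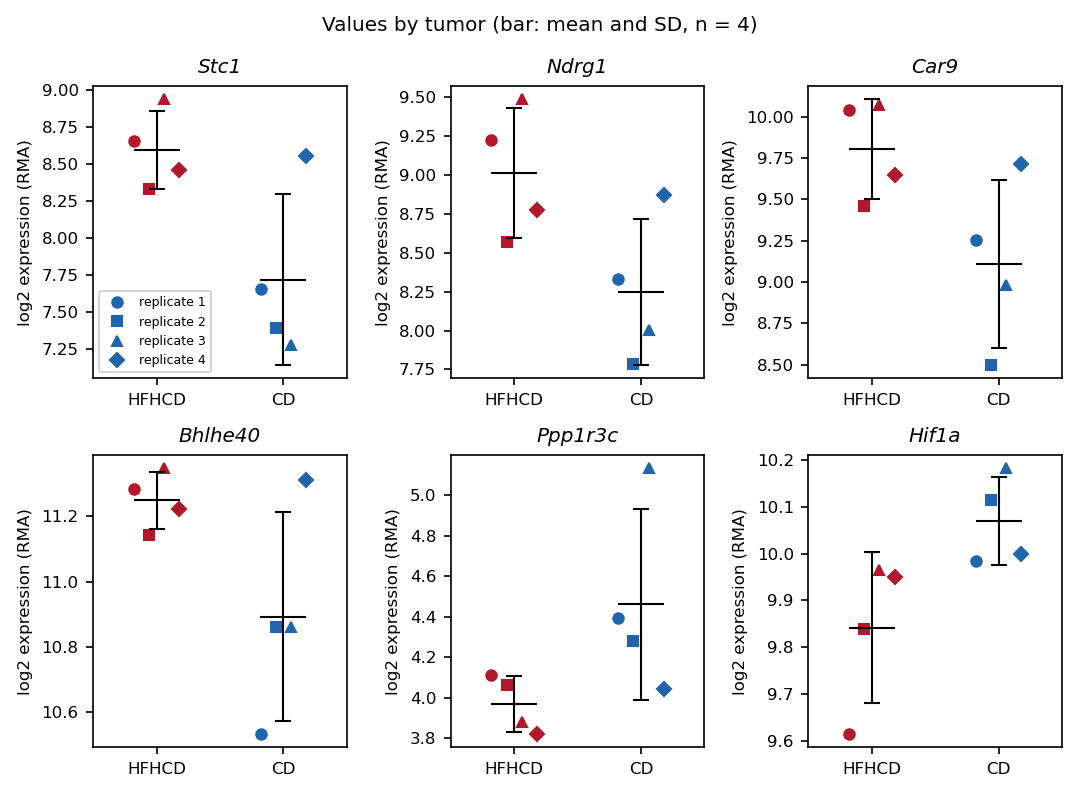
Log2 expression (RMA, vertical axis) of the 5 called genes and of Hif1a in each tumor, HFHCD in red and CD in blue, with the mean and SD of 4 tumors as black bars and a symbol for each replicate number. For Stc1, Ndrg1, Car9 and Bhlhe40 the CD 4 tumor, the blue diamond, lay within the range of the HFHCD tumors, and for Hif1a the 4 HFHCD tumors lay below the 4 CD tumors.

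Mxi1, Bhlhe40, Rora, Ccng2, Zfp395 and Nfil3 act in transcription or the cell cycle. All 6 had a log2 fold change above 0, as had 50.7% of all genes, and 1 was called (16.7%, where 8.68% of all genes were). Bhlhe40, also known as DEC1, codes for a repressor that acts in the circadian clock. Its values were 11.28, 11.14, 11.35 and 11.22 in HFHCD tumors 1 to 4, against 10.53, 10.86, 10.86 and 11.31 in CD tumors 1 to 4. The 4 HFHCD tumors lay close together and above CD 1, CD 2 and CD 3, and CD 4 was second only to HFHCD 3. The log2 fold change was 0.36 ± 0.15 (SE), or 1.28-fold (limma, p = 0.0411, adjusted p = 0.55, exact permutation p = 0.114). The call did not survive the loss of any single tumor except CD 4: it was 0.35, 0.39, 0.33 and 0.37 without HFHCD 1, 2, 3 and 4, and 0.24, 0.35 and 0.35 without CD 1, 2 and 3, while it was called without CD 4, at 0.50.

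Ccng2 codes for cyclin G2, an atypical cyclin linked to growth arrest. It lay between 7.03 and 7.64 on HFHCD and between 6.42 and 7.37 on CD, with CD 2 and CD 3 below all other tumors and CD 1 above HFHCD 2 and HFHCD 4. Its log2 fold change of 0.48 ± 0.23 (SE) was not called (limma, p = 0.0661, exact permutation p = 0.143), but was without CD 1 (0.65) and without HFHCD 2 (0.58), while without CD 3 it was 0.33. MXI1 is a repressor that competes with MYC for its partner MAX, and Mxi1 had a log2 fold change of 0.37 ± 0.21 (SE), called only without CD 4 (0.56) and at 0.23 without HFHCD 3. Rora, which codes for a nuclear receptor of the circadian clock, and Zfp395, a zinc finger gene, stood at 0.30 ± 0.17 and 0.27 ± 0.17 (SE), and were called only without CD 4 (0.41 and 0.39), while without CD 1 they were 0.15 and 0.12. Nfil3, a basic leucine zipper repressor gene, lay between 6.57 and 6.94 on HFHCD and between 6.33 and 7.14 on CD, with a 95% interval of -0.36 to 0.38 for the log2 fold change.

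Bnip3, Bnip3l, Higd1a, Fam162a and Ak4 act at mitochondria, and 0 of 5 were called by limma at an unadjusted p under 0.05. All 5 had a log2 fold change above 0, as had 50.7% of all genes. BNIP3 and BNIP3L (also called NIX) are outer membrane receptors for mitophagy. Bnip3l was 8.68, 8.60, 8.94 and 8.54 in HFHCD tumors 1 to 4, against 8.90, 7.93, 7.78 and 8.43 in CD tumors 1 to 4. Every HFHCD tumor was above CD 2, CD 3 and CD 4, and CD 1 was second of all tumors. A log2 fold change of 0.43 ± 0.23 (SE) was not called (limma, p = 0.0884, exact permutation p = 0.20), but was without CD 1 (0.65), while without CD 3 it was 0.27.

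Bnip3 ranged from 8.15 to 8.93 on HFHCD and from 7.60 to 8.73 on CD (log2 fold change 0.34 ± 0.25, SE), and Fam162a, which codes for a mitochondrial protein, from 9.92 to 10.51 on HFHCD and from 9.60 to 10.48 on CD (0.19 ± 0.20). In both genes CD 2 was the lowest tumor and HFHCD 4 the next lowest. Higd1a, whose protein binds respiratory chain complexes, and Ak4, an adenylate kinase gene of the mitochondrial matrix, were highest in CD 4, at 7.41 and 7.70. Higd1a had a log2 fold change of 0.14 with a 95% interval of -0.39 to 0.67, and Ak4 one of 0.0036 with an interval of -0.28 to 0.29.

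Ppp1r3c codes for a targeting subunit that brings protein phosphatase 1 to glycogen and favours glycogen synthesis. It read 4.11, 4.06, 3.88 and 3.82 in HFHCD tumors 1 to 4, against 4.39, 4.28, 5.13 and 4.04 in CD tumors 1 to 4. CD 3 was the highest and the only tumor above 4.50, and CD 4 lay below HFHCD 1 and HFHCD 2. With 7 of 8 tumors in the dimmest 40% of values, all 4 HFHCD tumors among them, the size of the difference is uncertain and no linear fold is given. The log2 fold change was -0.49 ± 0.21 (SE, limma, p = 0.0423, adjusted p = 0.56, exact permutation p = 0.0857). Without CD 3 it was -0.27 and not called, and the call was also lost without HFHCD 1, 2, 3 or 4 (-0.54, -0.52, -0.46 and -0.44) and without CD 1 (-0.52). CD 3 also had the highest means of the fibroblast (7.52), muscle (7.01) and macrophage (7.66) markers, and their part in this difference was not tested.

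Kdm3a and Jmjd6 code for oxygen-dependent enzymes of the Jumonji family, and KDM3A removes methyl groups from lysine 9 of histone H3. Kdm3a was 8.75 to 9.12 on HFHCD and 8.68 to 8.94 on CD (log2 fold change 0.15 ± 0.11, SE), and Jmjd6 was 9.00 to 9.43 on HFHCD and 8.99 to 9.38 on CD (0.03 ± 0.12). Neither was called.

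Among the HIF subunits 0 of 4 were called by limma at an unadjusted p under 0.05. Hif1a, the broadly used alpha subunit, was 9.62, 9.84, 9.97 and 9.95 in HFHCD tumors 1 to 4, against 9.98, 10.11, 10.18 and 10.00 in CD tumors 1 to 4. It was the only one of the 32 genes whose diets did not overlap, with all HFHCD tumors below all CD tumors, where 5.20% of all genes had diets that did not overlap, 2.27% with this pattern and 2.93% with the reverse. HFHCD 3, the highest on HFHCD, and CD 1, the lowest on CD, were close. The log2 fold change was -0.23 ± 0.10 (SE), or 1.17-fold higher on CD, and was not called (limma, p = 0.0552, adjusted p = 0.59, exact permutation p = 0.0286, the smallest possible). It was called without HFHCD 3 (-0.27) and without CD 1 (-0.26).

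Epas1 codes for HIF-2 alpha, an alpha subunit that is prominent in endothelium. It was 6.32, 6.73, 6.90 and 6.75 in HFHCD tumors 1 to 4, against 5.42, 6.95, 6.94 and 7.01 in CD tumors 1 to 4. CD 1 was far below all other tumors, whereas the other CD tumors were above every HFHCD tumor. Over all tumors the log2 fold change was 0.09 ± 0.33 (SE, limma, p = 0.783, exact permutation p = 1.00), and without CD 1 it was -0.29, not called either.

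Hif3a, another alpha subunit gene with products that can act as inhibitors, was at 4.53, 4.34, 4.41 and 4.52 on HFHCD, against 4.77, 4.26, 4.45 and 4.39 on CD. Arnt, the shared partner, was at 8.98, 9.18, 9.30 and 9.32 on HFHCD, against 8.64, 9.27, 9.10 and 9.42 on CD. In both genes the CD tumors spread more widely than the HFHCD tumors and enclosed them. Their log2 fold changes were -0.02 and 0.09, with 95% intervals of -0.28 to 0.25 and -0.28 to 0.46.

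Of the oxygen sensors and VHL 0 of 5 were called by limma at this threshold. Egln1, which codes for PHD2, the main prolyl hydroxylase, was 9.43, 9.21, 9.77 and 9.49 in HFHCD tumors 1 to 4, against 8.88, 8.97, 9.26 and 9.71 in CD tumors 1 to 4. HFHCD 3 was the highest and CD 4 the second, and CD 1 and CD 2 were below all HFHCD tumors. Over all tumors the log2 fold change was 0.27 ± 0.19 (SE, limma, p = 0.184, exact permutation p = 0.257), and it was called without CD 4, at 0.44, while it was 0.16 without CD 1 and 0.17 without HFHCD 3.

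Egln2, for PHD1, was 7.90, 8.0, 8.08 and 8.14 on HFHCD, against 8.04, 8.06, 8.20 and 8.20 on CD (log2 fold change -0.09 ± 0.09, SE). Egln3, for PHD3, was 5.52, 5.58, 5.57 and 5.15 on HFHCD, against 5.55, 5.45, 5.79 and 5.31 on CD (-0.07 ± 0.14). The diets overlapped in both, and for Egln3, HFHCD 4 was apart from the other HFHCD tumors.

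Hif1an, which codes for FIH, was 6.32, 6.90, 6.95 and 6.97 on HFHCD, against 6.22, 7.35, 7.07 and 6.98 on CD. HFHCD 1 and CD 1 were low, and the other CD tumors were above all HFHCD tumors. Vhl was 7.94, 7.86, 8.03 and 7.70 on HFHCD, against 8.17, 7.40, 7.0 and 7.66 on CD. Here CD 1 was the highest of all tumors and the other CD tumors were below all HFHCD tumors. Log2 fold changes were -0.12 ± 0.24 for Hif1an and 0.32 ± 0.22 for Vhl (SE), and the second was called without CD 1, at 0.53, but was 0.14 without CD 3. Hif1an was 0.03 without HFHCD 1, 0.02 without CD 2 and -0.35 without CD 1, and not called.

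**Figure D4:**
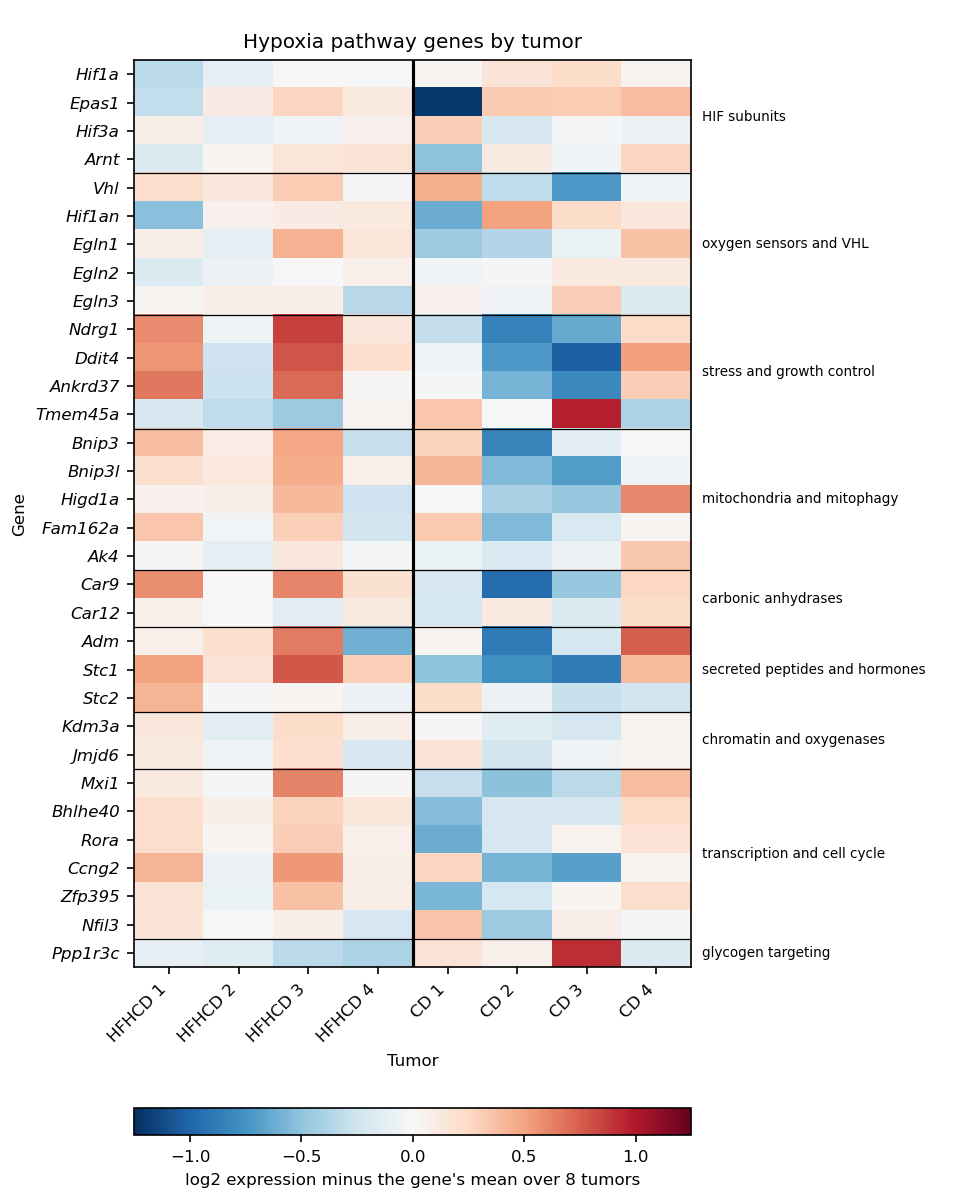
Log2 expression of the 32 genes (rows, by role) in the 4 HFHCD and 4 CD tumors (columns), each gene minus its mean over the 8 tumors, from blue (lower) to red (higher). HFHCD 3 and CD 4 are red for many targets, CD 2 and CD 3 are blue, and Epas1 is darkest in CD 1, at 5.42 before centring.

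The level of these genes also varied between tumors of the same diet. The mean over the 32 genes was 7.59, 7.42, 7.73 and 7.43 in HFHCD tumors 1 to 4, against 7.36, 7.15, 7.28 and 7.60 in CD tumors 1 to 4. HFHCD 3 was highest, CD 4 came second and CD 2 was lowest. HFHCD 3 was the highest HFHCD tumor for 21 of the 32 genes (65.6%), against 28.5% of all genes, and CD 4 was the highest CD tumor for 18 (56.3%), against 23.4% of all genes. CD 2 was below the whole HFHCD range for 23 of the 32 genes (71.9%), against 28.2% of all genes. CD 3 was below it for 14 (43.8%, against 30.6% of all genes), CD 1 for 12 (37.5%, against 24.9%) and CD 4 for 3 (9.38%, against 23.2%). In CD 4 the marker means were 6.32 for fibroblast, 5.47 for muscle and 6.26 for macrophage genes, each the lowest of the CD tumors and, for muscle and macrophage genes, within the HFHCD range. The T and NK cell mean of CD 4, 4.36, was also the lowest on CD, but its endothelial mean, 6.37, was the highest of all tumors. CD 2 had the next lowest fibroblast, muscle and macrophage means on CD, and the lowest mean over the 32 genes. The part of cell content in these levels was not tested. The SD was larger on CD than on HFHCD for 27 of the 32 genes (84.4%), and for 69.9% of all genes.

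Co-variation over the 8 tumors was measured for all 496 pairs of the 32 genes by Pearson's r, with an exact two-sided permutation test over the 40320 orders of the tumors and adjustment over the 496 pairs. The mean r was 0.20 over these pairs and 0.011 over all pairs of the 24675 genes. With an adjusted p under 0.05, 35 pairs co-varied, 33 with r above 0 and 2 below, which together held 25 of the 32 genes. Without adjustment 118 pairs had an exact p under 0.05, and by Spearman's rho 21 of the 35 pairs also passed after adjustment. The share of all gene pairs that would pass the same test was not measured, so these counts have no background share beside them. The mean r over all pairs is no such share, since positive and negative r cancel in it. With values centred within diet the 35 pairs kept their sign, with absolute r of 0.65 to 0.98, as they did without CD 1 and CD 3, with 0.74 to 0.99. Each diet has 4 tumors, too few for a test within it. The count was 2 without HFHCD 3 and 6, 8, 10, 12, 16, 26 and 41 without HFHCD 4, CD 2, HFHCD 1, CD 3, CD 4, HFHCD 2 and CD 1, each from 7 tumors.

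**Figure D5:**
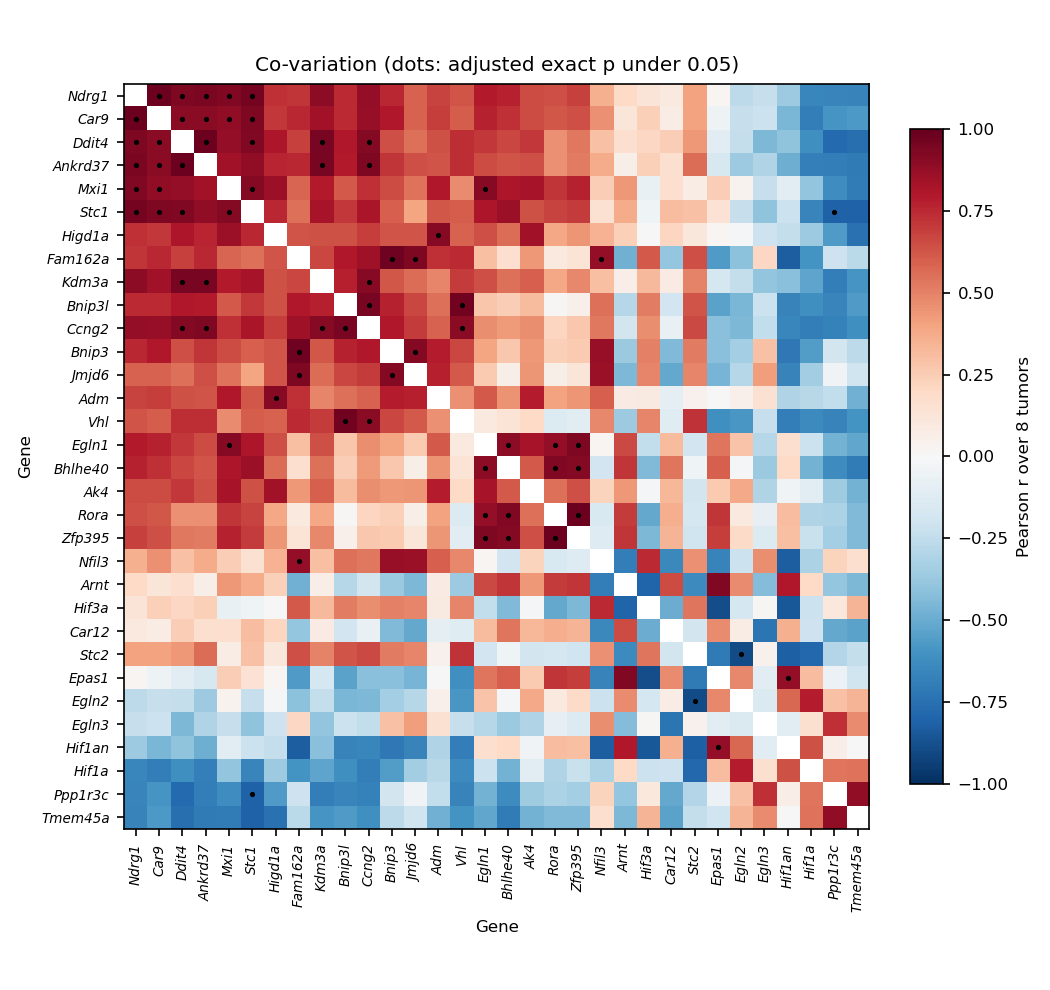
Pearson's r over the 8 tumors for each pair of the 32 genes, from blue (-1) to red (1), with a dot where the exact permutation p adjusted over 496 pairs was under 0.05. The 15 pairs among Ndrg1, Car9, Ddit4, Ankrd37, Mxi1 and Stc1 had r of 0.84 to 0.98, 12 of them with a dot, Rora with Zfp395 had the highest r of all pairs, and Hif1a, Ppp1r3c and Tmem45a had r below 0 with 24, 24 and 25 of the other 31 genes.

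The pairs with the smallest exact p lay both within and across the roles named above. Ddit4 and Ankrd37, both of stress and growth control, whose promoters with 2 and 4 matches are shown above, ranked the tumors identically (r = 0.98, exact permutation p = 2.48e-05, adjusted p = 0.0062, rho = 1.00, exact p = 4.96e-05, adjusted p = 0.012). So did Ndrg1 and Car9 (r = 0.98, exact permutation p = 2.48e-05, adjusted p = 0.0062, rho = 1.00, exact p = 4.96e-05, adjusted p = 0.012). The order for Ndrg1 and Car9 was HFHCD 3, HFHCD 1, CD 4, HFHCD 4, HFHCD 2, CD 1, CD 3 and CD 2, from high to low. Without the 2 tumors farthest from the median of the first gene, r was 0.95 for Ddit4 with Ankrd37 (CD 2 and CD 3 left out) and 1.00 for Ndrg1 with Car9 (CD 2 and HFHCD 3 left out).

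Stc1, called between diets as Ndrg1 and Car9 were, followed both. Its r was 0.96 with Ndrg1 (exact permutation p = 7.44e-05, adjusted p = 0.0062, rho = 0.98, exact p = 0.000397, adjusted p = 0.015) and 0.93 with Car9 (exact permutation p = 0.000372, adjusted p = 0.021, rho = 0.98, exact p = 0.000397, adjusted p = 0.015). Without the 2 farthest tumors these were 0.94 and 0.92, and centred within diet 0.91 and 0.86. Ddit4 also co-varied with Kdm3a (r = 0.95, exact permutation p = 0.000372, adjusted p = 0.021, rho = 0.98, exact p = 0.000397, adjusted p = 0.015), with 0.91 without CD 2 and CD 3. Ddit4 was in 6 of the 35 pairs, and Ndrg1, Car9, Stc1, Ankrd37 and Ccng2 in 5 each.

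Egln1 co-varied with genes of transcription. Rora and Zfp395 had r = 0.98 and Egln1 and Zfp395 r = 0.94, both with exact permutation p = 7.44e-05, adjusted p = 0.0062 and rho = 0.98 (exact p = 0.000397, adjusted p = 0.015). In these genes CD 1 was the lowest tumor and HFHCD 3 the highest, and r was 0.95 for Rora with Zfp395 without CD 1 and CD 2 and 0.94 for Egln1 with Zfp395 without CD 1 and HFHCD 3. Vhl and Bnip3l followed another order, with CD 1 among the top 2 tumors and CD 3 last. Their r was 0.97 (exact permutation p = 7.44e-05, adjusted p = 0.0062, rho = 0.98, exact p = 0.000397, adjusted p = 0.015), and also 0.97 without CD 1 and CD 3. Called pairs of Mxi1 and Ccng2 linked these genes with those of the paragraphs before. Not all called pairs were linked in this way, as Bnip3, Fam162a, Jmjd6 and Nfil3 were in called pairs only with each other. Mxi1 was in called pairs with Egln1 and with Stc1, Ndrg1 and Car9. Ccng2 was in called pairs with Vhl and Bnip3l and with Ddit4, Ankrd37 and Kdm3a.

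Among mitochondrial genes Bnip3 and Fam162a, with 5 and 6 promoter matches, had r = 0.97 (exact permutation p = 0.000372, adjusted p = 0.021, rho = 0.90, exact p = 0.00456, adjusted p = 0.057). Bnip3 and Jmjd6 had r = 0.92 (exact permutation p = 0.000422, adjusted p = 0.021, rho = 0.90, exact p = 0.00456, adjusted p = 0.057). Both pairs missed 0.05 by rho after adjustment. Without CD 2 and HFHCD 3, r was 0.96 and 0.90.

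The 2 pairs with r below 0 were Egln2 with Stc2 (r = -0.89, exact permutation p = 0.00263, adjusted p = 0.043, rho = -0.81, exact p = 0.0218, adjusted p = 0.14) and Stc1 with Ppp1r3c (r = -0.81, exact permutation p = 0.00278, adjusted p = 0.044, rho = -0.74, exact p = 0.0458, adjusted p = 0.18). Without the 2 farthest tumors they were -0.72 and -0.79, and Stc2 and Ppp1r3c were mostly below 4.50. Of the subunits, 1 was in a called pair, Epas1 with Hif1an (r = 0.88, exact permutation p = 0.00246, adjusted p = 0.042, rho = 0.90, exact p = 0.00456, adjusted p = 0.057). Without CD 1 and HFHCD 1, the 2 lowest tumors for both genes, r was 0.48, so the relation rests on those tumors.

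Other genes of the HIF pathway were counted from 4 lists, of which 60 of 63 symbols were measured. Of the 60, 5 were higher on HFHCD, 1 was lower and 54 were not called by limma, with a median log2 fold change of 0.03. The 6 called are 10.0% of the 60, close to the 8.68% of all genes. The count became 3 (5.0%) without HFHCD 3, 11 (18.3%) without CD 1 and 12 (20.0%) without CD 4, where 7.76%, 15.0% and 8.92% of all genes were called. Of 12 genes of the VHL ligase and HIF co-factors, 1 was called (8.33%, where 8.68% of all genes were). This was Cited2, which codes for a protein that competes with HIF for the co-activators CBP and p300. Cited2 lay between 9.78 and 10.09 on HFHCD and between 9.56 and 9.79 on CD (log2 fold change 0.25 ± 0.10, SE, limma, p = 0.0396, adjusted p = 0.55, exact permutation p = 0.0571). The call was lost without HFHCD 3 (0.21), HFHCD 4 (0.19), CD 2 (0.25), CD 3 (0.20) or CD 4 (0.25). In the same list Cited4 was at -0.23 ± 0.12 and Elob, a subunit gene of the VHL ligase, at 0.25 ± 0.16 (SE), and they were called only without HFHCD 4 (Cited4, -0.32) or without CD 1 (Elob, 0.36). Without HFHCD 3 Cited4 was -0.14, and without CD 3 Elob was 0.11.

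Of 23 glycolytic targets 3 were higher and 0 lower by limma. Gys1, for muscle type glycogen synthase, was 9.92, 9.75, 10.10 and 9.82 in HFHCD tumors 1 to 4, against 8.97, 9.08, 9.02 and 9.95 in CD tumors 1 to 4. CD 4 again lay within the HFHCD range and the other CD tumors well below it (log2 fold change 0.64 ± 0.21, SE, limma, p = 0.0126, adjusted p = 0.47, exact permutation p = 0.114). Pfkp, a phosphofructokinase gene, was higher by 0.28 ± 0.12 (SE, limma, p = 0.0431, adjusted p = 0.56, exact permutation p = 0.114), and lost the call without any single tumor except CD 4 (0.21 to 0.31). Aldoc (0.65 ± 0.30) and Slc16a3 (0.48 ± 0.23, SE), for an aldolase and a lactate exporter, were not called over all tumors, but were without CD 1 (0.78 and 0.58) and without CD 4 (0.88 and 0.66). The lowest values were 0.41 for Aldoc without CD 3 and 0.31 for Slc16a3 without CD 2. Gapdh was higher by 1.02 ± 0.17 (SE, limma, p = 0.000191, adjusted p = 0.37, exact permutation p = 0.0286), but its probe set read only 4.95 to 5.39 on HFHCD and 3.77 to 4.61 on CD, near the dim end of the array, and Gapdh has many near-identical pseudogene copies, so its value is uncertain.

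Of 15 vascular and matrix targets 1 was higher and 1 lower by limma, 13.3% of the list, where 8.68% of all genes were called. Vegfa, for the endothelial growth factor VEGF-A, was 10.40, 9.89, 10.22 and 9.88 in HFHCD tumors 1 to 4, against 8.94, 8.90, 9.43 and 9.83 in CD tumors 1 to 4, so that the diets did not overlap (log2 fold change 0.82 ± 0.22, SE, limma, p = 0.00392, adjusted p = 0.42, exact permutation p = 0.0286). Lox, for the collagen crosslinking enzyme lysyl oxidase, was 4.38, 4.53, 4.05 and 4.42 on HFHCD, against 6.53, 4.49, 5.69 and 4.86 on CD, highest in CD 1 and CD 3 (-1.05 ± 0.38, SE, limma, p = 0.0215, adjusted p = 0.50, exact permutation p = 0.0571), and was -0.33 and not called with both left out. Its call was also lost without HFHCD 3 or without CD 3 (-0.95 in each case), and without CD 1 it was -0.67 and still called. Angptl4 (-0.60 ± 0.28) and Edn1 (-0.23 ± 0.13, SE), for an angiopoietin-like protein and endothelin 1, were not called, but Angptl4 was without CD 2 (-0.78) or CD 4 (-0.74). Without CD 1 Angptl4 was -0.29, and without CD 3 Edn1 was -0.11. Of 10 iron and redox targets 0 were called by limma at an unadjusted p under 0.05, and the smallest p-values were those of Isca1 (log2 fold change 0.19 ± 0.12) and Nos2 (-0.28 ± 0.18, SE), which were 0.11 without HFHCD 3 and -0.08 without CD 3.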

How the data were processed

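Total RNA of 8 whole B16-F10 tumors, 4 on HFHCD and 4 on CD, was measured on Affymetrix MouseGene2.0ST arrays. The values that the authors deposited are log2 expression by RMA, in which background is corrected, arrays are brought to a common distribution and probes are summarised. Affymetrix Expression Console and RMA are named in the submitters' processing notes, with versions not given in the sources used here. Sample titles gave the diets and replicate numbers. The table had 25429 probe sets, and the 24675 with 1 symbol in the platform annotation were tested. None had more than 1 symbol, and 754 were not named here. Because of the common distribution, a change shared by most genes would not be seen.

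Diets were compared in limma 3.58.1 (lmFit, eBayes) under R 4.3.3, with no covariate, filter or scaling added, and a gene counted as called if its unadjusted p was under 0.05 as in the methods, with Benjamini-Hochberg adjusted p over all genes. For single genes, all 70 assignments of the tumors gave an exact two-sided permutation p. Pairs were tested in Python 3.11.15 with numpy 2.4.6. The scripts were tested on simulated data. Alternatives were a replicate block, each array left out, CD 1 and CD 3 both left out, a robust, trended variance prior, the methods' t-test, weights per array, centring on medians, cyclic loess or quantile normalization, a filter that kept genes above 4.50 (the 40th percentile over all values) on 4 or more arrays, and all probe sets. The number of arrays limits the precision.

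The 32 genes, the other lists and the alternatives were chosen with earlier results of these data known, so no test over a list was made. Named in full were called genes, genes whose diets did not overlap, HIF subunits, and oxygen sensors with VHL. Of each other pathway list the called genes and up to 2 more with the smallest p were named, with Vegfa and Lox, and of the pairs the 10 with the smallest p and all called pairs with r below 0. Epas1 with Hif1an, and the called pairs of Mxi1, Ccng2, Fam162a, Jmjd6 and Nfil3 outside these 10, were named after their values were seen.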

Additional observations from a re-analysis of the deposited data

Results flagged for a closer look

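In 6 of 92 groups of 4 tumors, 1 tumor lay apart from the others of its diet by Dixon's criterion (a gap to the nearest tumor that is large for the group's range), where chance gives about 1 in 20. Among the 32 genes these were Epas1, at 5.42 in CD 1 against 6.94 to 7.01 in the other CD tumors, Hif1an, at 6.32 in HFHCD 1 against 6.90 to 6.97 in the other HFHCD tumors, and Egln3, at 5.15 in HFHCD 4 against 5.52 to 5.58 in the other HFHCD tumors. Among other pathway genes they were Gys1, at 9.95 in CD 4 against 8.97 to 9.08 in the other CD tumors, Aldoc, at 10.57 in HFHCD 3 against 9.91 to 9.96 in the other HFHCD tumors, and Edn1, at 4.65 in CD 3 against 4.15 to 4.20 in the other CD tumors.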

How the results depend on the processing

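Precision is limited by 4 arrays per diet. Each call of a gene between diets rests on an unadjusted p, whereas pairs were called on an adjusted p. The 2141 genes called over all genes became 3510 with array weights, 3586 with CD 1 and CD 3 both left out, and 1485 to 3709 with each tumor left out in turn. For the 32 genes the count of 5 became 3 with CD 1 and CD 3 both left out, 1 by the methods' t-test and 2 to 12 with each tumor left out. For the other pathway genes it was 3 to 12 with each tumor left out. Called pairs numbered 27 by rho and 2 to 41 with each tumor left out. Centred within diet, 65 pairs had an absolute r of at least 0.81, the smallest among the 35 called pairs. That count used a cutoff on r and not an adjusted p, so it cannot be set against the 35. Tumors with the same replicate number did not deviate together (correlations of deviations of 0.27, -0.03, -0.26 and 0.05). With the replicate block Bhlhe40 kept its log2 fold change of 0.36 and was no longer called by limma, and the other 4 called genes of the 32 were still called. Over the alternatives run, Stc1 kept its call in 17 of 18, Ndrg1 in 15 of 18, Car9 in 14 of 18, Bhlhe40 in 5 of 18 and Ppp1r3c in 8 of 17, with no change of sign.

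Among the named genes and alternatives run, only genes that were not called changed sign, and the cause was not tested. With CD 1 and CD 3 both left out the log2 fold change was -0.31 for Epas1, 0.12 for Hif3a, -0.15 for Arnt, 0.075 for Egln3, -0.028 for Higd1a, -0.073 for Ak4 and -0.17 for Car12. With array weights it was -0.17 for Epas1, 0.061 for Hif3a, -0.049 for Arnt, 0.0075 for Egln3, -0.030 for Ak4 and -0.082 for Car12. Quantile normalization gave -0.011 for Ak4 and -0.010 for Nfil3, and cyclic loess normalization -0.0027 and -0.00012. With each tumor left out the range was -0.29 to 0.24 for Epas1, -0.086 to 0.083 for Hif3a, -0.066 to 0.19 for Arnt, -0.35 to 0.030 for Hif1an, -0.14 to 0.032 for Egln3, -0.059 to 0.12 for Ak4, -0.050 to 0.10 for Car12, -0.11 to 0.44 for Adm, -0.037 to 0.11 for Jmjd6 and -0.13 to 0.13 for Nfil3.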
